A study of Mus musculus with 2 samples.

Results

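Cells with a fibroblast profile made up 506 of the 26113 cells kept from 2 single-cell libraries of sorted mouse lung, 341 of 12027 at E18.5 and 165 of 14086 at postnatal day 10 (P10). They were chosen by their own counts. A member had at least 0.5% of its unique molecular identifiers (UMIs, the counted transcript molecules) in the summed matrix genes Col1a1, Col1a2, Col3a1 and Mfap4, and under 0.3% in the contractile genes Acta2 and Tagln. Cells were kept with 500 genes or more, 1000 UMIs or more and no more than 20% of UMIs from mitochondrial genes. The share of members was 2.84% at E18.5 (95% Clopper-Pearson interval 2.55 to 3.15%) and 1.17% at P10 (1.00 to 1.36%). Because the rule used measured values, these shares and every contrast of members with remaining cells are descriptions. There was 1 library per time point, so no value has a replicate check and none was tested. Intervals given throughout are exact 95% intervals that cover counting error only, and the age of the mice and the library cannot be told apart.

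Lung fibroblasts lay down the collagens and elastic fibres that shape the airspaces, and they send growth factors to the neighbouring epithelium. Alveolar fibroblasts, which include the lipid-storing lipofibroblasts, sit beside alveolar type 2 cells and are commonly marked by the transcription factor Tcf21. Alveolar myofibroblasts deposit elastin at the tips of the growing septa after birth. Adventitial fibroblasts surround vessels and airways and are known for decorin and other small proteoglycans.

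The study traced cells of the Cdh16 lineage. Both libraries came from mice carrying Cdh16CreERT2, a tamoxifen-activated recombinase driven by the Cdh16 gene, and a tdTomato reporter. The labels give the reporter as tdTomato flox/flox, whereas the design text gives R26-tdTomato flox/wt. Pregnant females received tamoxifen from embryonic day 12.5, either injected (0.1 mg/kg) or in their food (0.4 g/kg), and the sources used here do not say which route each library had. Digested lungs were stained for CD326, the epithelial protein EpCAM, and red cells were sorted. Both libraries carry the labels batch 1 and lung alveolar epithelial cells, and the P10 library is also labelled embryonic lung. The sources used here do not say how many animals entered each library.

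The libraries held 137837590 UMIs in 12739 barcodes at E18.5 and 171205348 UMIs in 14503 barcodes at P10. Members had a median of 4481 UMIs and 2042 genes at E18.5 and of 8087 UMIs and 3112 genes at P10, against 9135 and 10270 UMIs in the remaining cells. Their summed profiles held 2099170 and 1703804 UMIs. The libraries shared 59 barcodes, 0 of them among members.

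The label fibroblast was checked against 14 fibroblast markers that the rule did not use. At E18.5, 13 of the 14 stood at least 2 times above the remaining cells in CPM, the UMIs of a gene scaled to the total of the summed profile, and at P10 all 14 did. Tcf21 was at 414 CPM in members and 4.48 CPM in the remaining cells at E18.5, and at 95.1 and 0.946 CPM at P10. Part of the membership went against the label, since 31 cells at E18.5 and 10 at P10 formed groups with all 6 mesothelial markers. Another 39 cells at E18.5 formed a group led by Nrxn3, Csmd1 and Egfem1. Genes of several cell types followed, among them the myeloid genes Ccl3 and Tyrobp. At P10, 66 of 165 members lay in groups with at least 1000 CPM of Aspn, listed among alveolar myofibroblast genes, and 10000 CPM of Eln. All these groups are described further on. The epithelial markers targeted by the sort were low in members. Epcam was at 79.1 CPM against 333 CPM in the remaining cells at E18.5, and at 41.7 against 184 CPM at P10. All 12 epithelial markers were below the remaining cells, with member-to-remaining ratios from 0.197 to 0.346 at E18.5 and from 0.226 to 0.593 at P10. Cdh16 itself gave 2 UMIs among E18.5 members and 1 among P10 members.

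At the edge of the rule, the lowest matrix sum among members was 0.501% in both libraries, and the highest outside was 0.498% at E18.5 and 0.496% at P10. Between 0.5 and 0.6% lay 39 E18.5 and 33 P10 members, and between 0.4 and 0.5% lay 33 and 31 cells that were not members. The highest Acta2 and Tagln sum inside was 0.290% and 0.293%, and the lowest outside was 0.321% and 0.337%. Only 10 cells at E18.5 and 11 at P10 met the matrix part of the rule and failed the contractile part.

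Against the remaining cells of their own library, 494 of 3440 genes (14.4%) were at least 2 times higher in E18.5 members and 630 of 3594 (17.5%) in P10 members. Nothing is read from these counts, since the rule used that contrast. Of the 15 genes with the largest ratio in each library, 5 were common to both. Fgf10, a growth factor for the distal epithelium, was at 120 CPM in E18.5 members and 0.881 CPM in the remaining cells, and at 71.6 and 0.573 CPM at P10. Dcn, which encodes decorin, was at 201 against 1.72 CPM at E18.5 and at 1208 against 9.41 CPM at P10. Wnt2, a ligand of lung mesenchyme, was at 58.1 against 0.326 CPM and at 36.4 against 0.384 CPM.

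Between the libraries, 480 of the 3751 genes that averaged 50 CPM or more (12.8%) were at least 2 times higher in P10 members, and 353 (9.41%) were at least 2 times lower. Over all these genes the median of log2(P10/E18.5) was 0.06, and log2 ratios below are in that direction. Genes were named where the ratio was largest and the gene was also at least 2 times above the remaining cells of the library in which it was higher. Of 470 nameable genes higher at P10, 220 met that second condition, as did 82 of 294 genes lower at P10.

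**Figure D1:**
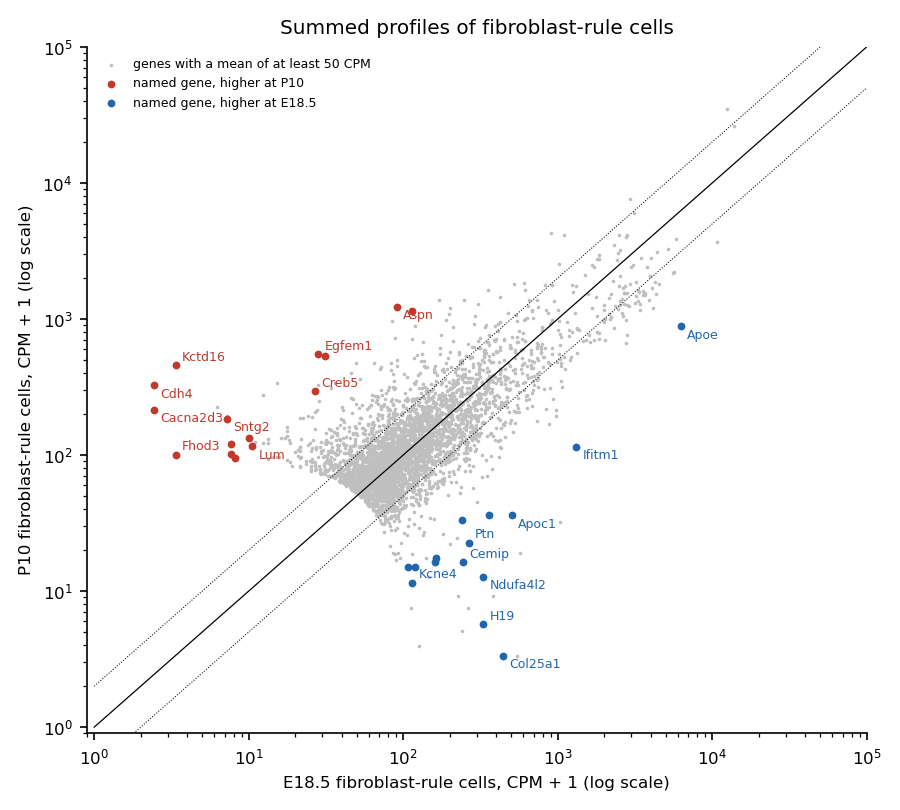
Summed expression of fibroblast-rule cells in the E18.5 library (x axis, CPM + 1, log scale) and the P10 library (y axis, CPM + 1, log scale), 1 point per gene averaging 50 CPM or more. The solid line marks equal levels and the dotted lines a ratio of 2. The 15 named genes of each direction are coloured and most are labelled, and Aspn (90.0 and 1234 CPM) lies far above the line while Apoe (6284 and 881 CPM) lies below it.

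The genes with the largest ratios towards P10 had several kinds of product. Aspn encodes asporin, a small leucine-rich protein of the matrix. It was at 90.0 CPM in E18.5 members and 1234 CPM in P10 members, a ratio of 13.7 (11.8 to 16.0). Egfem1 went from 27.2 to 549 CPM and the proprotein convertase gene Pcsk5 from 113 to 1152 CPM. At P10 the level in members was 41.4 times that of the remaining cells for Egfem1 and 36.7 times for Pcsk5. Cdh4, a classical cadherin, was at 1.43 CPM from 3 UMIs at E18.5 and at 326 CPM at P10. Bdnf, a neurotrophin, was at 6.67 and 119 CPM, and Lum, the proteoglycan lumican, at 9.53 and 116 CPM. The remaining named genes towards P10 were Kctd16, Cacna2d3, Fhod3, Sntg2, Csmd1, Enpp3, Grik4, Kcnma1 and Creb5, and the smallest ratio of the 15 was 10.2.

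Gene length moved with this direction. Of the 15 genes named towards P10, 11 span more than 100 kb, with a median of 413 kb, whereas 2 of the 15 named towards E18.5 do, with a median of 5.13 kb. Over all tested genes, the median log2 ratio was -0.54 in the fifth of genes with the shortest span and 0.71 in the fifth with the longest. When each gene was compared with genes of the same length, 293 of the 480 genes higher at P10 and 180 of the 353 lower ones were still called. The part of gene length in the named differences was not tested.

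Genes higher at E18.5 included lipid carriers and fetal growth genes. Apoe, which encodes the lipid carrier apolipoprotein E, went from 6284 CPM in E18.5 members to 881 CPM in P10 members, which puts E18.5 7.13 times above P10 (6.76 to 7.53). At P10 the remaining cells held 535 CPM, so the P10 level was 1.65 times theirs, against 12.5 times at E18.5. Its neighbour Apoc1 was at 505 and 35.2 CPM. Fabp4, a fatty acid binding protein of lipid-storing and endothelial cells, was at 356 and 35.2 CPM. Col25a1, a transmembrane collagen, gave 933 UMIs (444 CPM) in E18.5 members and 4 UMIs (2.35 CPM) in P10 members, an E18.5 level 189 times that of P10 (73.7 to 696). The interferon-induced gene Ifitm1 was at 1316 and 114 CPM and the opioid precursor gene Penk at 159 and 15.3 CPM. The imprinted genes H19 and Igf2 were at 329 and 4.70 CPM and at 162 and 16.4 CPM. The other genes named towards E18.5 were Ndufa4l2, Cemip, Ptn, Kcne4, Nrk, Ccl11 and Hmox1, and the smallest ratio of the 15 was 7.13.

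For 2 genes that differed in opposite directions, the RefSeq promoter windows on GRCm38.p6 (the mm10 assembly) are shown so that their base composition can be compared. Capitals mark matches, on either strand, to the TATA box (TATAAA), an E-box (CAGCTG), the TEAD motif (CATTCC) and the GC box (GGGCGG). The Tcf21 window lies at chr10:22820094-22820393 on the minus strand and the Aspn window at chr13:49544193-49544492 on the plus strand.
Tcf21: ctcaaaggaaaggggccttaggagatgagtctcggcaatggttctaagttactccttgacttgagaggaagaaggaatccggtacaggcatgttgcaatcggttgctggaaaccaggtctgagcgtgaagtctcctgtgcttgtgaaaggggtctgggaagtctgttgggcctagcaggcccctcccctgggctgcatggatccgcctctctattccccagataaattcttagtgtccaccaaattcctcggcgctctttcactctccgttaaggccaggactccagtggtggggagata
Aspn: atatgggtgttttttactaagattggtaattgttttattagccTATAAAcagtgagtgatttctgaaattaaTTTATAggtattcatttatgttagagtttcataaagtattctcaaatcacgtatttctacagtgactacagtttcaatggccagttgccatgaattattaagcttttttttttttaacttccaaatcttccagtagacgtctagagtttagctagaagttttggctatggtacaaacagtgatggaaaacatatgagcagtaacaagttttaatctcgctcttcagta
The Tcf21 window held none of the 4 motifs and 8 CpG pairs, and the Aspn window held 2 TATA box matches and 3 CpG pairs, against a median of 7 CpG pairs over 32851 windows of that length. In the Aspn window the annotated start lies after base 250, and both matches lie well upstream of it. Whether they act as a TATA box was not tested. The TATA box letters occurred in 13.6% of all windows, the E-box in 16.3%, the TEAD motif in 14.7% and the GC box in 35.7%. Of the genes named towards P10, 10 had a window, and the TATA box letters were in 2 of them, the E-box in 4, the TEAD motif in 2 and the GC box in 8. Of those named towards E18.5, 8 had a window, and the motifs were in 2, 1, 2 and 4 of them. A gene counted where any of its windows held the letters, whereas the percentages are shares of single windows, so the units differ. All of these are matches of letters only.

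Genes were next read by role, from lists of which a gene counted as measured with at least 10 CPM in a library. Over all 10072 genes at that level, 16.8% were at least 2 times higher at P10 and 8.32% at least 2 times lower, with a median log2 ratio of 0.15.

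Of 17 measured genes in a list of fibrillar and associated collagens, 5 (29.4%) were higher at P10 and 1 was lower, with a median log2 ratio of 0.38. That list left out the rule collagens, the type IV chains and Col25a1, which was at 444 and 2.35 CPM. Col5a1, which regulates fibril diameter, was at 187 and 255 CPM, and Col6a3, a chain of the beaded collagen VI filaments, at 349 and 302 CPM. Col12a1, a fibril-associated collagen, was at 112 and 228 CPM. Col13a1, a transmembrane collagen of alveolar fibroblasts, was the 1 lower gene of the list, at 298 and 140 CPM. Among enzymes that process and cross-link collagen, 7 of 26 were higher and 1 was lower. That 1 was Lox, which cross-links collagen and elastin, at 510 and 147 CPM, whereas its relative Loxl2 was at 25.2 and 128 CPM.

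Of 18 elastic fibre genes, 5 were higher at P10 and 1 was lower, with a median log2 ratio of 0.54. Eln, which encodes elastin, was among the most abundant, with 2921 CPM before birth and 7688 CPM after it, a ratio of 2.63 (2.55 to 2.71). Fbn1, the microfibril protein fibrillin-1, was at 354 and 677 CPM. Ltbp2, a microfibril-associated protein, was at 40.5 and 175 CPM and Mfap5, a microfibril glycoprotein, at 123 and 389 CPM. Emilin1, an elastic fibre glycoprotein, was lower at P10, at 92.9 and 44.0 CPM.

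Among 18 proteoglycan and hyaluronan genes, 5 (27.8%) were higher and 0 were lower (median log2 ratio 0.74), with Dcn at 201 and 1208 CPM and Prelp, a leucine-rich matrix protein, at 18.6 and 67.5 CPM. Among 19 matrix proteases and inhibitors, 8 (42.1%) were higher and 1 was lower, with the same median of 0.74. Mmp2, a gelatinase, was at 92.9 and 250 CPM, and Mmp11, the lower member, at 31.0 and 10.6 CPM. Of 23 adhesion and other matrix glycoproteins, 7 were higher and 2 were lower. Fn1, which encodes fibronectin, was at 2777 and 664 CPM, with E18.5 above P10 by a ratio of 4.18 (3.92 to 4.46). Tgfbi, a matrix protein induced by TGF-beta, was at 32.9 and 311 CPM, and Lama2, a laminin chain, at 132 and 555 CPM.

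Of 17 measured alveolar myofibroblast genes, 12 (70.6%) were higher at P10 and 1 was lower, with a median log2 ratio of 1.82. Without E18.5 group 1 and P10 groups 1 and 2 of the clustering described further on, that median was 0.63. Besides Aspn, Egfem1 and Tgfbi, they included the ligands Wnt5a (38.6 and 184 CPM) and Fgf18 (19.1 and 56.3 CPM) and the IGF-binding protein gene Igfbp5 (210 and 875 CPM). The receptor gene Pdgfra, which marks this lineage and alveolar fibroblasts, was at 115 and 176 CPM, a ratio of 1.53 (1.29 to 1.82). Of 23 adventitial genes, 11 were higher and 3 were lower (median 0.77). Of the 11 higher genes, 8 stood at least 2 times above the remaining cells at P10, and the 3 lower genes did at E18.5. Pi16 gave 3 UMIs at E18.5 and 123 at P10, at 1.43 and 72.2 CPM, and the chemokine Ccl11 was at 106 and 14.1 CPM.

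Alveolar fibroblast and lipofibroblast genes were split. Of 29, 9 were higher at P10 and 5 were lower, with a median log2 ratio of 0.33. Over the settings tried, that median ranged from -0.47 in the members lowest in UMIs to 0.58 without E18.5 group 1 and P10 groups 1 and 2. It was -0.01 as a mean over cells, so its direction did not hold. Of the 9 higher genes, 7 stood at least 2 times above the remaining cells at P10, and 4 of the 5 lower genes did at E18.5. The 5 lower genes were Fabp4, G0s2, Slc27a6, Plin2 and Pparg. Other lipid genes of the list did not share that direction, since Cd36, a fatty acid uptake receptor, and Ces1d, a lipase, were among the 9 higher, and Lpl and Fabp5 were within 2-fold. Plin2, which coats lipid droplets, was at 290 and 106 CPM, and G0s2, a lipase inhibitor, at 872 and 167 CPM. At P10 the Plin2 level in members was 0.576 times that of the remaining cells. The 9 higher genes included Aldh1a1, a retinaldehyde dehydrogenase, at 39.5 and 212 CPM and Scube2, a secreted protein of hedgehog transport, at 71.9 and 274 CPM. Inmt, a methyltransferase of alveolar fibroblasts, was at 331 and 588 CPM, a ratio of 1.78 (1.61 to 1.96). Its log2 ratio of 0.83 was -0.01 in the members lowest in epithelial markers and -0.20 in those lowest in UMIs. Itga8, an integrin subunit, was at 219 and 258 CPM. Tcf21, at 414 and 95.1 CPM, was above its P10 level at E18.5 by a ratio of 4.35 (3.68 to 5.18).

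**Figure D2:**
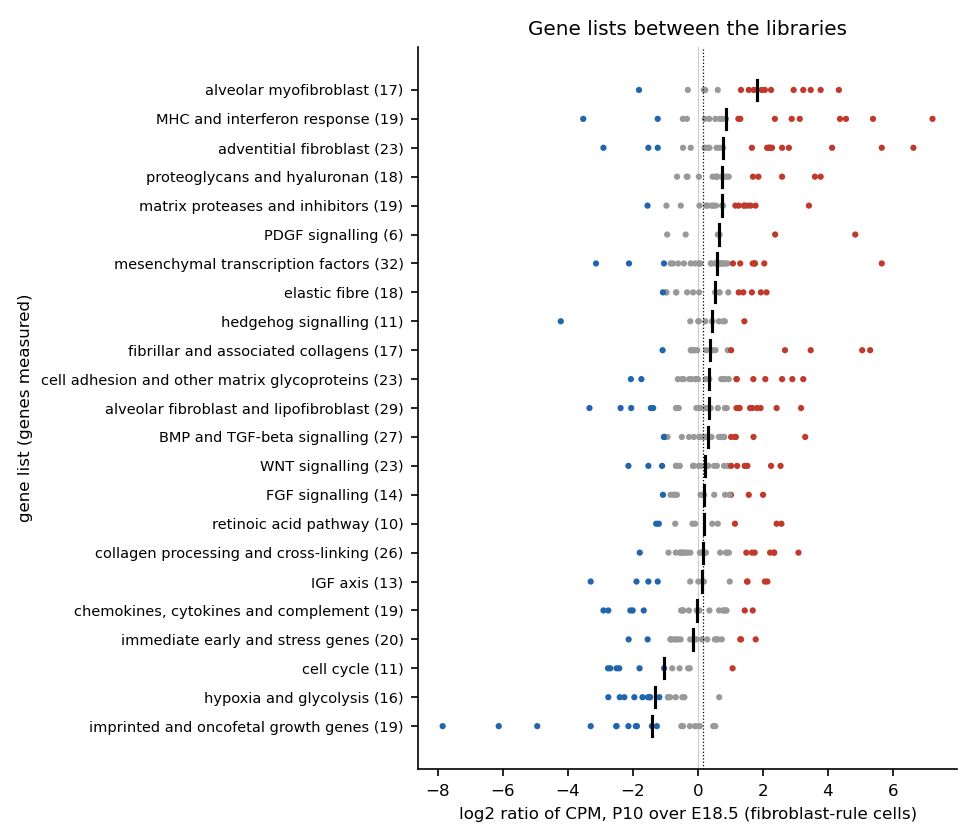
Log2 ratio of CPM, P10 over E18.5, in fibroblast-rule cells (x axis) for the measured genes of each list (y axis, number of genes in brackets), 1 point per gene. Red points are at least 2 times higher at P10, blue points at least 2 times lower, and grey points lie between. Black bars are list medians and the dotted line is the median of all 10072 genes, 0.15. The alveolar myofibroblast list has a median of 1.82 and the imprinted and oncofetal list of -1.42.

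Signalling lists had members in both directions. FGF signalling had 3 of 14 higher and 1 lower, and the ligand Fgf10 was at 120 and 71.6 CPM while Fgf7 was at 45.3 and 51.6 CPM. WNT signalling had 6 of 23 higher and 3 lower, with Wnt5a above and Rspo3, an enhancer of WNT signalling, below at 18.1 and 4.11 CPM. BMP and TGF-beta signalling had 5 of 27 higher and 3 lower, with the ligand gene Tgfb2 at 117 and 257 CPM and the inhibitory Smad7 at 256 and 124 CPM. The IGF axis had 4 of 13 in each direction. Igf1 was at 45.7 and 201 CPM, and Igf2 at 162 and 16.4 CPM. The log2 ratio of Igf2 was -3.30, but -0.17 without members that carried mesothelial UMIs and 0.12 with the matrix limit of the rule at 1%.

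Transcription factors of mesenchyme were mostly within 2-fold, with 7 of 32 higher and 3 lower. Ebf1 was at 48.1 and 163 CPM and Osr1 at 16.7 and 55.8 CPM. Snai1, of the Snail family of repressors, was at 67.2 and 7.63 CPM, and Meox2, a homeobox factor, at 63.4 and 47.0 CPM.

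Imprinted and oncofetal growth genes had 0 of 19 higher and 11 lower, with a median log2 ratio of -1.42. Of the 19, 12 stood at least 2 times above the remaining cells in the library where they were higher. Of the 11 lower genes, 5 did, and Dlk1 did not. In the remaining cells the median of this list was lower still, at -1.89. Dlk1, a fetal growth regulator, was at 545 CPM in E18.5 members and 1585 CPM in the remaining cells. Hypoxia and glycolysis genes had 0 of 16 higher and 9 lower, with a median of -1.33, against -1.50 in the remaining cells. Only 1 of the 16 stood at least 2 times above the remaining cells, and it was not among the 9 lower. Vegfa, the endothelial growth factor, was at 324 and 67.5 CPM in members and at 619 and 57.6 CPM in the remaining cells. Cell cycle genes had 1 of 11 higher and 6 lower, with a median log2 ratio of -1.04. The median was -0.31 as a mean over cells and 0.48 in the members lowest in UMIs, so its direction did not hold. Top2a, a topoisomerase of dividing cells, was at 15.7 and 2.93 CPM and was found in 7 and 5 members. Mki67, a marker of dividing cells, was found in 2.13% of E18.5 and 2.45% of P10 members at 2000 UMIs per cell, and in 3.23% and 8.48% with all UMIs, against 1.21% and 1.44% of the remaining cells at 2000 UMIs.

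Markers of other cells moved between the libraries too. Of 6 measured smooth muscle and myofibroblast markers, 4 (Lmod1, Myh11, Actg2 and Des) were higher at P10. The rule genes Acta2 and Tagln were within 2-fold. The list median was 1.62, but -0.14 without E18.5 group 1 and P10 groups 1 and 2. At P10 all 6 stood at least 2 times above the remaining cells. Endothelial markers had 6 of 6 measured genes higher at P10, and Pecam1 was at 21.0 and 95.7 CPM in members against 42.0 and 74.1 CPM in the remaining cells. Leukocyte markers had 4 of 6 lower, erythroid markers 4 of 4 lower, and 1 E18.5 member had 54.1% of its UMIs in erythroid genes. Surfactant RNA was high throughout, and Sftpc, the surfactant protein C gene of type 2 cells, was at 12439 and 34996 CPM in members. In the remaining cells it was at 63063 and 130277 CPM. The summed epithelial markers took a median of 0.803% of a member's UMIs at E18.5, from 0.406 to 17.1%, and of 2.34% at P10, from 1.68 to 15.8%. MHC and interferon genes had 9 of 19 higher at P10 and 2 lower, and Cd74, the invariant chain, was at 0.258 times the level of the remaining cells there. The part of these other cells' RNA in the differences was not tested.

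Members were not uniform. Clustering each library on its own gave 6 groups, numbered within the library, which are described by their leading genes and not compared in size. At E18.5, group 5 (96 cells) was led by Slc7a10, Slc27a6, Fgfr4, Col25a1 and Wnt2, and group 3 (71 cells) by genes that included Adm, Apoc1, Inmt and Col13a1. Group 2 (75 cells) was led by Penk, Mfap5, Cxcl12 and Postn, and group 4 (29 cells) by Cemip, Plat and the Nr4a genes. Group 1 (39 cells) was led by Nrxn3, Csmd1 and Egfem1, followed by genes of several cell types, among them the myeloid genes Tyrobp and Il1b. Leukocyte markers took 0.0621% of its UMIs. At P10, group 1 (48 cells) was led by Tnc, Kctd16, Cdh4 and Bdnf, with Myocd and Nrxn3 also among its leading genes. Group 2 (18 cells) was led by Ddc, Pdlim3 and Agt, with Egfem1 also among its leading genes. Group 3 (46 cells) was led by genes that included Col13a1, Scube2 and Inmt. Group 4 (35 cells) was led by Apod and Serpinf1, and group 5 (8 cells) by Has2 and Ugdh, enzymes of hyaluronan synthesis, and Pi16. Group 6 in each library was mesothelial-like, with Upk3b, a uroplakin of mesothelium, at 1214 CPM in the first library and 1468 CPM in the second.

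The genes that separated the libraries were spread unevenly over these groups. Aspn was at 3616 and 3090 CPM in P10 groups 1 and 2, at 243 CPM in P10 group 3, and at most at 238 CPM in any E18.5 group. Eln was at 18237 and 15164 CPM in P10 groups 1 and 2 and at 4894 CPM in P10 group 3, and between 1350 and 4563 CPM in the E18.5 groups. Dcn was at 3200, 4311 and 3004 CPM in P10 groups 4, 5 and 6 and at 26.5 CPM in P10 group 3. Tcf21 reached 1063 CPM in E18.5 group 5 and 247 CPM in P10 group 3. The P10 groups with the most Aspn, the most Dcn and the most Tcf21 were thus different ones, although group 5 held Aspn at 1453 CPM beside its Dcn. Igf2 and H19 were highest at E18.5 in the mesothelial-like group, at 946 and 1676 CPM, against at most 49.6 and 231 CPM in the other E18.5 groups. Igf2 was no longer 2-fold higher at E18.5 without members that carried mesothelial UMIs, or with the matrix limit of the rule raised to 1%, which also ended the 2-fold difference of Eln.

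**Figure D3:**
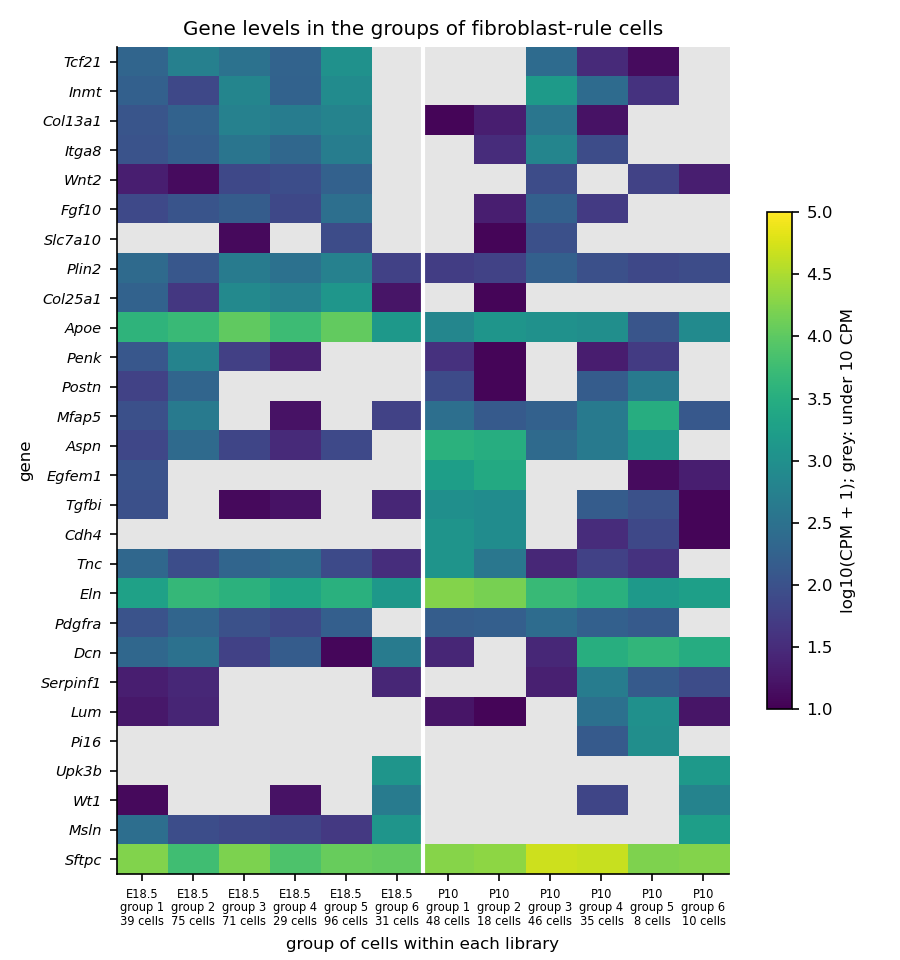
Levels of 28 genes (rows) in the groups of fibroblast-rule cells found within each library (columns, with the number of cells), as log10(CPM + 1) by colour, with grey for levels under 10 CPM. Aspn, Egfem1 and Eln are brightest in P10 groups 1 and 2, Dcn in P10 groups 4 to 6, Upk3b in group 6 of each library, and Apoe in E18.5 groups 3 and 5.

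Inmt and Col13a1 were both high, at 500 and 300 CPM or more, in E18.5 groups 3 and 5 (167 cells) and in P10 group 3 (46 cells). Levels that had been chosen after the groups were seen set this match. Its cells are also among the members from which the named genes were chosen, so the counts of named genes below are no separate check. Between these groups, 527 of 3584 genes (14.7%) were at least 2 times higher at P10 and 374 (10.4%) at least 2 times lower. Epithelial markers took 1.95% and 1.46% of UMIs in E18.5 groups 3 and 5 and 5.94% in P10 group 3. Endothelial markers took 0.00494%, 0.00452% and 0.0654%. The part of this RNA in the differences was not tested. Of the 15 genes named towards E18.5, 13 were at least 2 times higher there in the matched groups too, with a count of 0 taken as 3, and Ptn and Igf2 were not. Apoe was at 10860 and 1038 CPM, a ratio of 10.5 (9.64 to 11.4) in favour of E18.5. Col25a1 was at 1022 CPM and at 4.97 CPM from 3 UMIs. Fn1 was at 5063 and 1444 CPM, Tcf21 at 707 and 247 CPM, and Plin2 at 519 and 167 CPM.

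Of the 15 genes named towards P10, 9 were at least 2 times higher there in the matched groups, of which Kctd16 and Enpp3 rested on 1 UMI at E18.5 and 2 at P10. Cdh4, Cacna2d3, Fhod3, Egfem1, Kcnma1 and Lum were not at least 2 times higher at P10 in these groups. Aspn was at 70.8 and 243 CPM, a ratio of 3.44 (2.48 to 4.82), and Eln at 3532 and 4894 CPM, a ratio of 1.39 (1.31 to 1.46). Tnc, which encodes tenascin-C, was at 137 and 313 CPM over all members, but at 136 and 26.5 CPM in the matched groups, where E18.5 was higher. Npnt, the integrin ligand nephronectin, was at 337 and 1715 CPM, and Igf1 at 11.1 and 59.6 CPM. Fgf10, at 221 and 169 CPM, and Wnt2, at 126 and 82.8 CPM, were within 2-fold. Over all members, their summed levels were within 2-fold too. As a mean over cells, or in the members lowest in UMIs, both were more than 2 times lower at P10. Against genes of the same length, only Fgf10 was. At P10, 1 member held 24.6% of the Fgf10 UMIs. With members thinned to 2000 UMIs, Fgf10 was found in 21.6% at E18.5 and 9.20% at P10, and Wnt2 in 14.6% and 4.29%. Between the mesothelial-like groups (31 and 10 cells), 452 of 3767 genes (12%) were at least 2 times higher at P10 and 399 (10.6%) at least 2 times lower. Of the 15 genes named in each direction, 6 towards P10 and 9 towards E18.5 kept a 2-fold difference in that match. Those that kept it towards P10 were Kctd16, Cacna2d3, Sntg2, Egfem1, Kcnma1 and Lum. Aspn, Pcsk5, Cdh4 and Bdnf were among those that did not. Towards E18.5, Col25a1, Apoc1, Kcne4, Penk, Ccl11 and Apoe did not keep it.

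Detection per cell was compared after each cell was thinned to 2000 UMIs, which left out 13 E18.5 and 2 P10 members and 735 and 332 remaining cells with fewer. Tcf21 was found in 49.4% of E18.5 members (43.9 to 54.9%) and 13.5% of P10 members (8.66 to 19.7%), and before thinning in 64.8% and 27.9%. In the remaining cells it was found in 0.849% and 0.155% after thinning. Aspn was found in 16.2% and 63.8% of members, and in 25.8% and 80.0% before thinning, against 1.14% and 2.00% of the thinned remaining cells. The Aspn intervals after thinning were 12.3 to 20.6% and 55.9 to 71.2%. They cover counting error only, and Aspn had been named for its ratio between the libraries. Col13a1 was found in 43.9% and 14.1%, whereas Inmt was found in 34.8% (29.6 to 40.2%) and 30.1% (23.1 to 37.7%). Epcam was found in 7.62% and 6.75% of members and in 45.8% and 28.7% of the remaining cells.

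UMIs of markers from different groups were also found in some of the same cells. At least 1 UMI of Inmt, Col13a1 or Itga8 was found in 213 of 328 thinned E18.5 members and 58 of 163 at P10. At least 1 UMI of Aspn, Egfem1 or Tgfbi was found in 67 and 111. Both sets were found together in 38 and 22 of the thinned members, and with all UMIs in 79 of 341 and 64 of 165. As shares of thinned members, the first set, the second set and both were at 64.9, 20.4 and 11.6% at E18.5. At P10 they were at 35.6, 68.1 and 13.5%. At E18.5, Egfem1 and Tgfbi were in 2.44% and 3.05% of thinned members but in 3.01% and 4.99% of remaining cells, whereas Aspn was in 16.2% and 1.14%. Whether the sets met more or less often than their shares give was not tested. None of these genes nor Dcn, Lum or Pi16 was found in 63 and 7 thinned members.

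**Figure D4:**
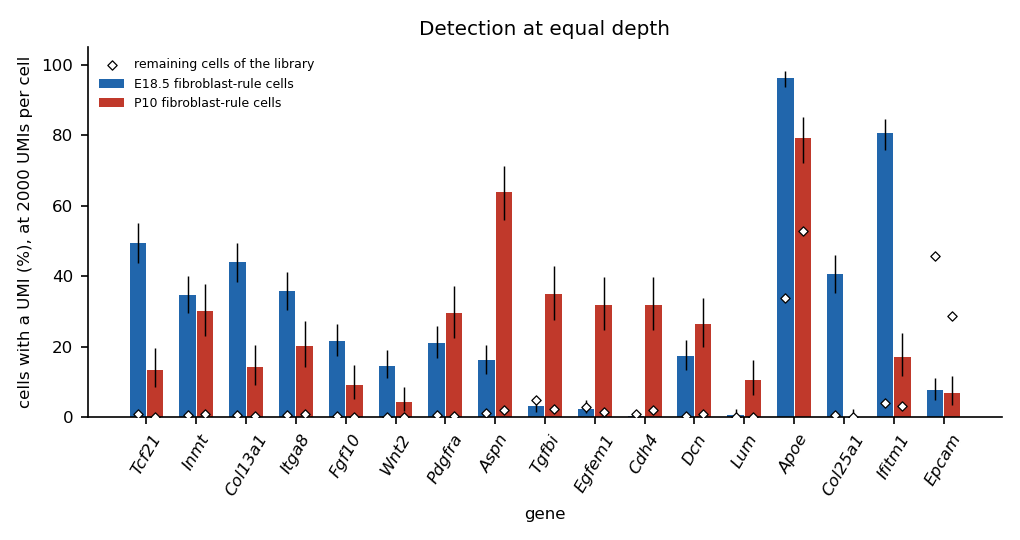
Share of cells with a UMI (y axis, %) for 17 genes (x axis) after thinning to 2000 UMIs per cell, for fibroblast-rule cells at E18.5 (blue bars) and P10 (red bars). Lines are 95% Clopper-Pearson intervals and white diamonds the remaining cells of the same library. Tcf21 is at 49.4% and 13.5%, Aspn at 16.2% and 63.8%, and Epcam is the gene with diamonds above both bars.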

How the data were processed

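Raw UMI counts per gene and barcode were deposited for 2 libraries, the output of Cell Ranger 7.0.1 per the file headers, on mm10 per the submitters' processing notes, which also name Seurat 4.0.0. The sources used here do not say whether intronic reads count. Counts of members were summed per library and scaled to CPM of the sum (Python 3.11.15, scipy 1.17.1, pandas 2.3.3). Ratios have conditional binomial intervals, and the interval script was tested on simulated data. With 1 library per time point no test was run. Genes needed a mean of 50 CPM (lists: 10 CPM in a library), and a fold against 0 counts was computed with 3 counts. Named genes were the 15 largest ratios in each direction, at least 2 times above the remaining cells of the library where higher, without mitochondrial, ribosomal, haemoglobin, Y-linked, Xist, unnamed and rule genes, together with list members and the 15 largest ratios over remaining cells. Groups came from scanpy 1.11.5 (1000 variable genes, 10 components, 10 neighbours, Leiden resolution 0.5). No doublet caller was run. Gene spans came from GENCODE vM21 and promoters from RefSeq. Symbols given to more than 1 gene were left out of lists. Alternatives were other cell filters, rule limits, scalings, expression minimums and gene-length matching. The members and lists were chosen with earlier results of these data known.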

Additional observations from a re-analysis of the deposited data

Results flagged for a closer look

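Among the named genes, 2 were at least 2 times above the remaining cells in 1 library and at most at 1/2 of them in the other. Cdh4 had a member-to-remaining ratio of 0.293 at E18.5, where it rested on 3 UMIs, and of 25.4 at P10. Apoc1 had a ratio of 5.65 at E18.5 and of 0.292 at P10. With 1 library per time point, these differences were not tested.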

How the results depend on the processing

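With the matrix sum at 1% or more, 172 E18.5 and 62 P10 cells were members, and at 0.25%, 432 and 255. With Acta2 and Tagln below 0.1%, 303 E18.5 cells were. With minimums of 20 CPM, 100 CPM and none, genes higher at P10 numbered 927, 254 and 4431, genes lower 548, 234 and 2862, and 235 were lower against genes of the same length. Genes above the remaining cells numbered 962 at 20 CPM and 11498 without a minimum at E18.5, and 1211 and 12842 at P10. Of 39 named genes with a 2-fold difference, 36 kept it under the 1% rule (Igf2, Eln and Tnc did not, with log2 ratios of 0.12 for Igf2 and -0.58 for Tnc). A choice made after seeing the data left out E18.5 group 1 and P10 groups 1 and 2, and 36 kept it. Eln, Col13a1 and Tnc did not, Tnc at -1.81. There the list median of leukocyte markers turned from -1.18 to 0.43 and that of smooth muscle and myofibroblast markers from 1.62 to -0.14. The cell cycle median turned to 0.48 in the members lowest in UMIs. Col13a1 was under 2-fold with Acta2 and Tagln below 0.1%, Tnc against genes of the same length, and Igf2 without members with mesothelial UMIs. The E18.5 cells in groups high for Inmt and Col13a1 numbered 96 and 137 at clustering resolutions 0.25 and 1, against 167. Scaling without mitochondrial, ribosomal, haemoglobin and surfactant genes moved the median log2 ratio of all genes from 0.06 to -0.04. The causes were not tested. No paired analysis was possible because each time point had 1 library. Member depth limits low genes, since 3 UMIs of a summed profile are near 1 to 2 CPM.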
